A study of Mus musculus with 2 samples.

Results

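The p53 pathway genes described here are Trp53, which encodes the tumour suppressor p53, its regulators, and its targets in cell cycle arrest, cell death and DNA repair, 32 genes in all. They were measured on 1 array of J147-treated cells and 1 array of vehicle-treated cells, by every probe set annotated to their symbols. The genes were selected partly on the differences between these same arrays, since low values of several targets were known when the list was drawn up, so every value below is a description and none is tested. Of the 32 genes, 29 had a probe set in the annotation used (55 probe sets), among 18193 genes that the annotation lists. Trp53, Bax and Gdf15 had none, so their levels were not analysed here and they enter only the search of promoter sequences below. Of the 29, 27 were scored, that is, had a probe set with a mean intensity above 100 over both arrays once each array was scaled to a median of 100. The p53 targets Pmaip1 and Perp were not, which left 27 of 10611 scored genes.

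The samples were HT22 cells, a mouse hippocampal nerve cell line, plated in medium with serum and exposed the next day for 1 h to the neurotrophic compound J147 or to the DMSO vehicle alone. The J147 concentration is 10 mM in the sample labels and 10 μM in the methods of the study. RNA was hybridized to Affymetrix mouse genome GeneChips, 1 array per condition, so there is no replicate check. A response to J147 and other differences between these 2 cultures cannot be told apart. Of 8 neuronal markers only Tubb3 and Syp lay above 2.23, the floor of the gcRMA log2 values, on both arrays. Syp was close to it at log2 intensities of 2.73 for J147 and 2.73 for vehicle, while 6 of 7 fibroblast markers lay above the floor. So did 2 of 6 astrocyte markers, Gja1 and Slc1a3, and 1 of 5 microglial markers, Csf1r. No endothelial or oligodendrocyte marker did. The HT22 line descends from hippocampal cells immortalised with a large T antigen of a simian virus, a protein known to bind p53.

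The p53 protein is a transcription factor that is held at a low level in unstressed cells because Mdm2 marks it for degradation. Damage to DNA and other stresses release it from Mdm2, after which it binds pairs of short half-sites near its target genes and raises their transcription. Mdm2 is itself a target, which closes a negative feedback loop. Other targets stop the cell cycle, repair DNA or start apoptosis.

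The promoters below are shown because p53 acts through such sites and because 4 of these genes were among the members with the largest differences. They hold the 250 bases before the annotated start in RefSeq (GRCm38.p6), read 5′ to 3′ on the strand of the gene. Capitals mark each exact match to the p53 half-site, a 10-base consensus that has the core CNNG (each N being A or T) after 3 purines and before 3 pyrimidines and that reads alike on both strands. The Cdkn1a sequence lies at chr17:29090729-29090978 on the plus strand, before the more upstream of 2 annotated start sites, which are 2790 bases apart. The others lie on the minus strand, Mdm2 at chr10:117710759-117711008, Ccng1 at chr11:40755287-40755536, Btg2 at chr1:134079156-134079405 and Ddias at chr7:92874248-92874497. Ccng1 was added after its values were seen, as a gene with a half-site and nearly equal values on both arrays. Trp53inp1 had no entry in the promoter table.
Cdkn1a: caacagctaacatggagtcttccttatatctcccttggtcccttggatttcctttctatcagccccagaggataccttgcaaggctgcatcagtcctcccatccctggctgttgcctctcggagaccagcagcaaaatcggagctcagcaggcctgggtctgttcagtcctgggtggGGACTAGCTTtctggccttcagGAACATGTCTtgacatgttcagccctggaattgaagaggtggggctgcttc
Mdm2: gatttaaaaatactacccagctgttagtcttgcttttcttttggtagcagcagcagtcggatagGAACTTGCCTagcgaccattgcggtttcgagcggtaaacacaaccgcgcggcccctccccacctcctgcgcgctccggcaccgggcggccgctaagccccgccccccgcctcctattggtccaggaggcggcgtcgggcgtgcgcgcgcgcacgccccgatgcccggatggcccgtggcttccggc
Ccng1: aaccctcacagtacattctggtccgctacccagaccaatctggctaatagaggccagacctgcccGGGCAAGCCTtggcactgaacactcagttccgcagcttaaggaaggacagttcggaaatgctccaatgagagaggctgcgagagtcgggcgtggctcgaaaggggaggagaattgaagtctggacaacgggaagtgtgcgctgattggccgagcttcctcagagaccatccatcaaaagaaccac
Btg2: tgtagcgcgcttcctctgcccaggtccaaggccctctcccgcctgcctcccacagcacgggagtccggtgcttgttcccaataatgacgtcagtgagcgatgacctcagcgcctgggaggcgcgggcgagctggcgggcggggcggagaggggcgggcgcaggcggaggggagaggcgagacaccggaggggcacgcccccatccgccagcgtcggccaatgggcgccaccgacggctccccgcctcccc
Ddias: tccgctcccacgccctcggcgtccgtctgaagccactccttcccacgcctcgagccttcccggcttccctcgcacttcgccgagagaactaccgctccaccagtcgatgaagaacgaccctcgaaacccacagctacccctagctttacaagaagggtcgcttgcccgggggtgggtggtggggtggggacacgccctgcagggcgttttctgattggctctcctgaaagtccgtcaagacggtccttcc

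Cdkn1a held 2 exact half-sites, beginning 73 and 51 bases before this start. Mdm2 held 1, beginning 186 bases before the start, and Ccng1 held 1, beginning 185 bases before it. Btg2 and Ddias held none in this window, which says nothing about sites elsewhere in these genes. Of the 32 members, 24 had 1 or more promoters of 300 bases (250 before and 50 after the start) in the table, 33 promoters in all. An exact half-site was present in 13 of the 33, or 39.4%, against 8.36% of all 32851 promoters of that length. The promoters of Aen overlap and hold the same site, which enters this count once for each. By gene, 12 of the 24 had an exact half-site in a promoter. The share by gene over all genes was not computed, and the 8.36% counts promoters, so it is no background for this count. A pair of half-sites 0 to 13 bases apart with up to 3 mismatches in all was present in 19 of the 33, or 57.6%, against 45.1% of all promoters. A pair without any mismatch was present in 1 of the 33, that of Cdkn1a, against 24 of the 32851. Many members were listed as p53 targets, which p53 reaches through such sites. Their shares may thus follow from how the list was made, and they test nothing. The difference between genes with and without an exact half-site was not tested. The 10 scored genes with an exact half-site in a promoter had a median log2 difference of -0.37, J147 minus vehicle, and ran from -0.98 to 0.03, with 4 of them at least 1.5-fold lower with J147. The 11 scored genes with a promoter but no exact half-site had a median of -0.37 and ran from -1.38 to 0.23, with 3 of them at least 1.5-fold lower. Of all scored genes, 0.81% were at least 1.5-fold lower.

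Most of the scored p53 pathway genes had a lower level on the J147 array. Each gene is represented by its brightest probe set over both arrays, and the log2 difference is J147 minus vehicle after scaling, which adds -0.0046 to the difference of the deposited values. Of the 27 genes, 8 were at least 1.5-fold lower with J147 and none was higher by as much, where 0.81% of all scored genes were at least 1.5-fold lower and 0.556% at least 1.5-fold higher. At 2-fold, 2 were lower and none higher, where 0.0754% of all scored genes were lower and 0.066% higher. A difference of more than 0.1 log2 units downward was seen in 18 of the 27, against 21.9% of all scored genes, and upward in 1, against 15% of all scored genes. The remaining 8 lay within 0.1. The median log2 difference was -0.30, beside -0.00 over all scored genes, and the values ran from -1.38 to 0.23. The scored genes include genes near the floor with identical values on both arrays, and their median equals the value of such a gene. The shares of all scored genes were not matched to the members by level. The 8 genes were Btg2, Trp53inp1, Mdm2, Ddias, Cdkn1a, Polk, Eda2r and Gadd45a, and the 2 past 2-fold were Btg2 and Trp53inp1. In a bulk sample, fewer cells with a transcript and less of it per cell cannot be told apart. Of the 10 scored genes with the largest fall 3 were members, as were 8 of the 100 with the largest fall and 0 of the 100 with the largest rise. Because the members were chosen with these differences known, these counts are given as a description only.

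**Figure D1:**
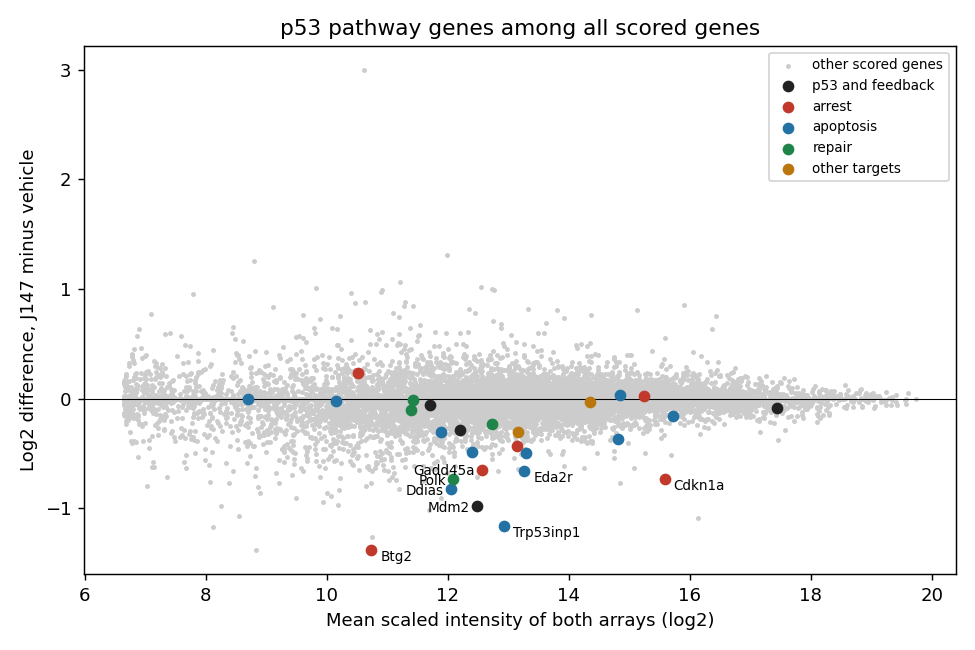
Log2 difference, J147 minus vehicle (vertical axis), against the mean scaled intensity of both arrays on the log2 scale (horizontal axis), for each scored gene by its brightest probe set, with 1 array per condition. Coloured points are the 27 scored p53 pathway genes by role and grey points the other scored genes. Btg2, Trp53inp1 and Mdm2 lie lowest among the members, at -1.38, -1.16 and -0.98.

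Lower values were found in each role, and the order of the roles depended on the threshold. Of 6 scored arrest genes 3 were at least 1.5-fold lower, with a median log2 difference of -0.54, where 0.81% of all scored genes were past that fold. Of 11 scored apoptosis genes 3 were, with a median of -0.37. Of 4 scored regulators that feed back on p53 1 was, with a median of -0.19, and of 4 scored repair genes 1 was, with a median of -0.17. The 2 scored targets outside these roles, Sesn1 and Zmat3, had a median of -0.17 and none was. More than 0.1 log2 units lower were 3 of the 4 repair genes, 8 of the 11 apoptosis genes, 4 of the 6 arrest genes, 2 of the 4 regulators and 1 of the 2 other targets, where 21.9% of all scored genes were. The repair count includes Ddb2 at -0.105, just past this threshold. With quantile normalization Ddb2 was at -0.084, and after subtraction of a lowess curve at -0.078, both within 0.1. The place of the repair genes at this threshold thus rests on Ddb2. With so few genes in a role and 1 array per condition, no difference between roles was tested. Within each role except the pair of other targets, at least 1 gene was 1.5-fold lower and at least 1 lay within 0.1 log2 units of 0.

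**Figure D2:**
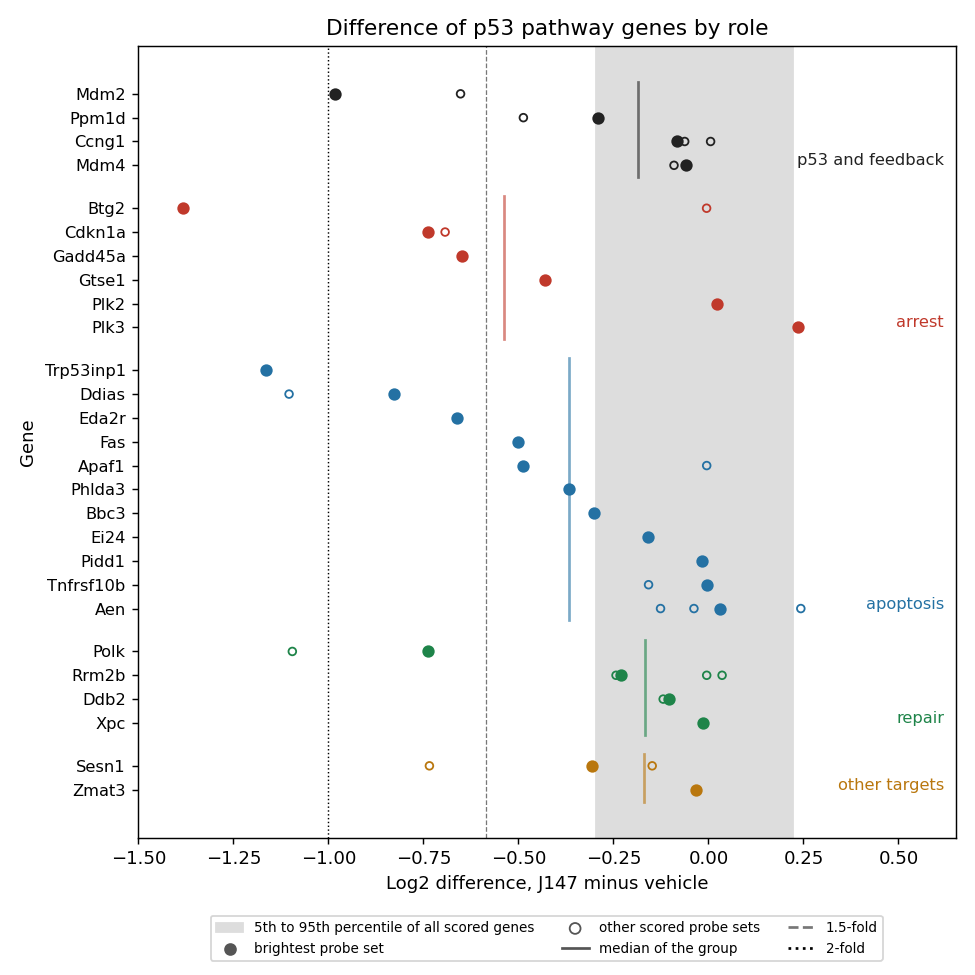
Horizontal axis, log2 difference (J147 minus vehicle) of the 27 scored p53 pathway genes, arranged by role on the vertical axis, 1 array per condition. Filled points are the brightest probe set of a gene, open points its other scored probe sets, coloured bars the median of each role, and the grey band runs from -0.30 to 0.22, the 5th to the 95th percentile of all scored genes. The arrest genes have the lowest median, -0.54, and also the highest single member, Plk3 at 0.23.

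Among the regulators, Mdm2, the ubiquitin ligase of p53, had log2 intensities of 7.65 for J147 and 8.63 for vehicle by probe set 1423605_a_at, 1.97-fold lower with J147. Its second scored probe set, 1427718_a_at, had 7.46 for J147 and 8.11 for vehicle, a log2 difference of -0.65, while the other one, 1457929_at, lay at the floor on both arrays. Mdm2 had the 9th largest fall of the scored genes. Among the 500 scored probe sets nearest in level to 1423605_a_at, the log2 differences had an SD of 0.17, which describes the scatter between these 2 arrays and is no replicate error. Mdm4, a relative of Mdm2 that binds p53 and holds back its activity, was nearly alike on both arrays, at 7.34 for J147 and 7.39 for vehicle, and at 6.13 for J147 and 6.22 for vehicle by its other scored probe set. Ppm1d, a phosphatase that removes activating phosphates from p53, had 7.72 for J147 and 8.00 for vehicle by its brightest probe set, a log2 difference of -0.29. Its other probe set had 6.30 for J147 and 6.78 for vehicle, a log2 difference of -0.49. Ccng1, which encodes cyclin G1, an activator of Mdm2 through a phosphatase, had 13.07 for J147 and 13.15 for vehicle, and its 3 probe sets ran from -0.08 to 0.01. So among the genes that feed back on p53, Mdm2 stood apart from Mdm4 and Ccng1, with Ppm1d between them.

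Of the arrest genes, Cdkn1a encodes p21, the inhibitor of cyclin-dependent kinases through which p53 stops the cell cycle. Its brightest probe set, 1424638_at, had log2 intensities of 10.88 for J147 and 11.61 for vehicle, 1.67-fold lower with J147. The other, 1421679_a_at, had 10.15 for J147 and 10.84 for vehicle, a log2 difference of -0.69 beside -0.74 for the first. Both probe sets thus gave nearly the same difference, at a level where the 500 nearest probe sets had an SD of 0.11. Btg2, an antiproliferative partner of the enzymes that shorten mRNA tails, was at place 1 of the scored genes ranked by fall. Probe set 1416250_at had 5.71 for J147 and 7.08 for vehicle, 2.61-fold lower with J147, with an SD of 0.26 among the nearest probe sets. Its other probe set, 1448272_at, had 3.71 for J147 and 3.71 for vehicle, so the 2 probe sets of Btg2 disagree and the mean of both is a log2 difference of -0.69. Gadd45a, a stress sensor that promotes arrest before mitosis, had 7.90 for J147 and 8.54 for vehicle on its single probe set, 1.57-fold lower with J147. Gtse1, a microtubule-binding protein that can take p53 out of the nucleus, had 8.60 for J147 and 9.02 for vehicle, 1.35-fold lower with J147. It is grouped here with the arrest genes although it can thus oppose p53. The median of this group lies between the values of Gtse1 and Gadd45a. The polo-like kinases were not lower. Plk2 had 10.92 for J147 and 10.90 for vehicle, and Plk3 had 6.29 for J147 and 6.06 for vehicle, a log2 difference of 0.23 that is below the SD of 0.27 among its nearest probe sets.

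**Figure D3:**
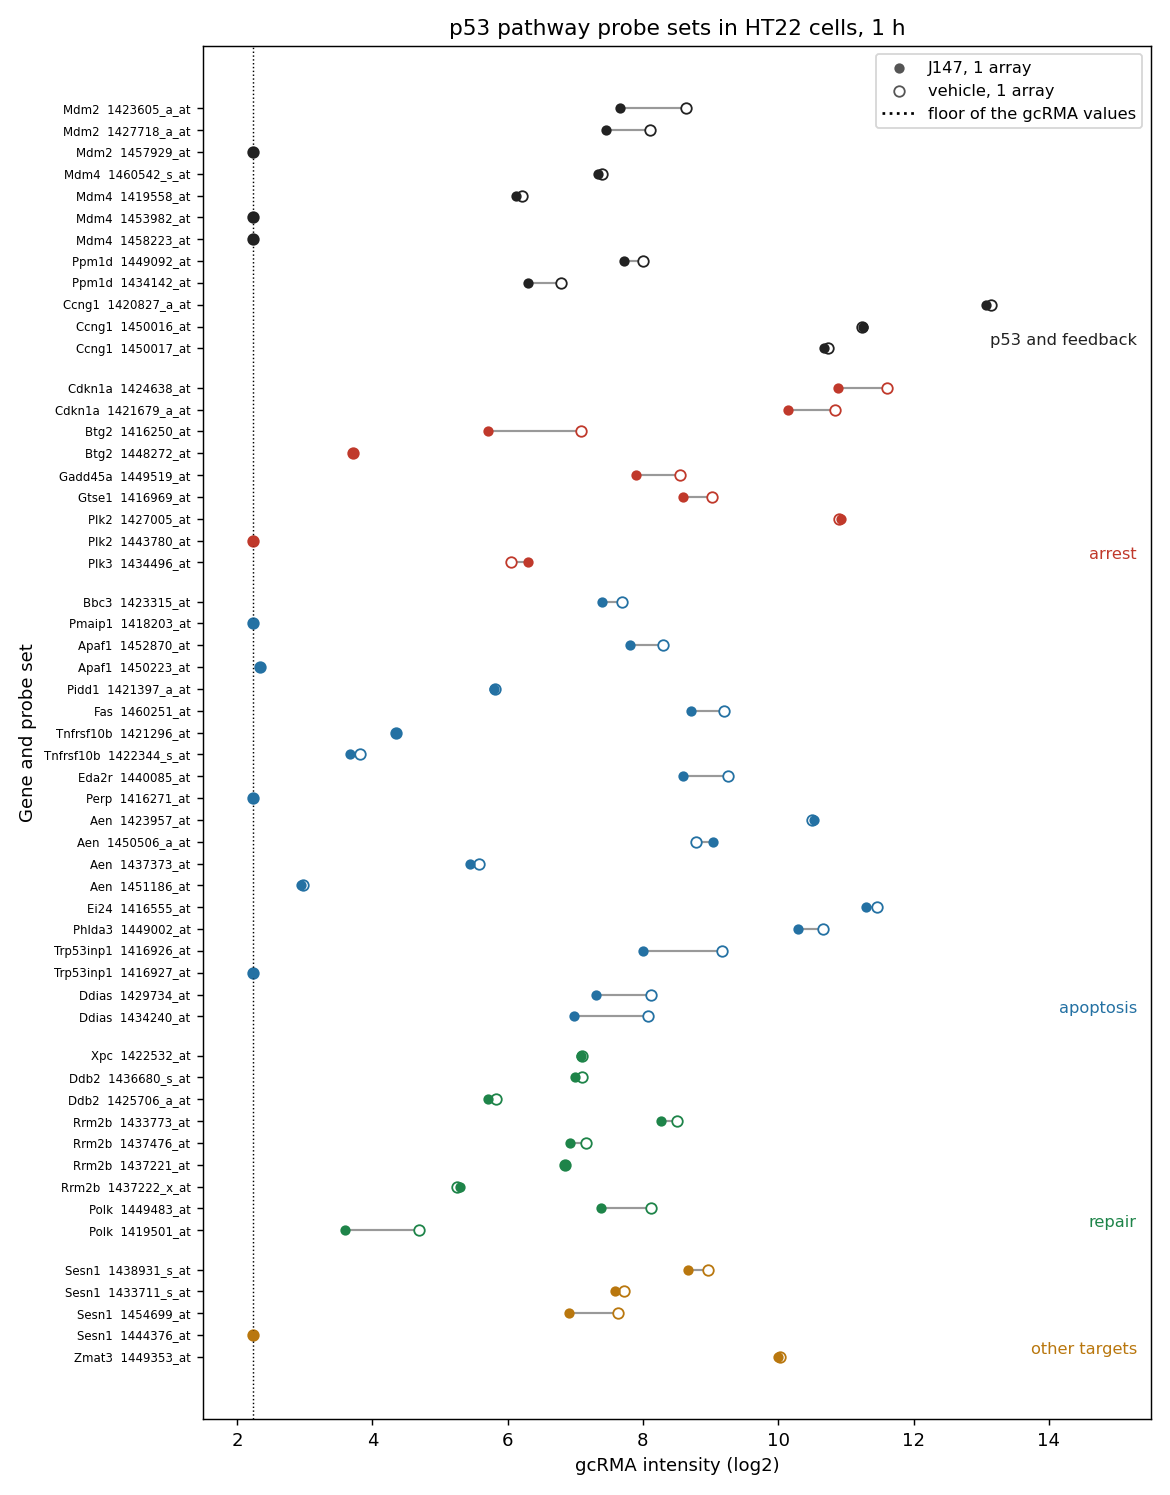
Deposited gcRMA intensity on the log2 scale (horizontal axis) of all 55 probe sets of the p53 pathway genes (vertical axis, by role) on the J147 array (filled circles) and the vehicle array (open circles), 1 array each, with grey lines joining the values of a probe set. A single filled circle means that both values nearly coincide, and the dotted line marks the floor of 2.23, where 8 of the 55 lie on both arrays. The longest lines belong to Btg2, Trp53inp1, Ddias, Polk and Mdm2, each with the filled circle on the left.

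The apoptosis genes included the member with the second largest difference. Trp53inp1, a nuclear protein that works with p53 in cell death and in autophagy, had log2 intensities of 8.00 for J147 and 9.16 for vehicle by probe set 1416926_at. It was 2.24-fold lower with J147, with an SD of 0.17 among the nearest probe sets, and had the 5th largest fall of the scored genes. Its other probe set lay at the floor on both arrays. Ddias, which is known in human cells to suppress apoptosis after DNA damage, had 7.30 for J147 and 8.12 for vehicle by one probe set, 1.78-fold lower with J147. Its other probe set had 6.97 for J147 and 8.07 for vehicle, a log2 difference of -1.10. A gene that opposes death was thus lower on the same array as genes that promote it.

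Of the receptors at the cell surface, Eda2r, a receptor for a form of ectodysplasin, had 8.60 for J147 and 9.25 for vehicle, 1.58-fold lower with J147. Fas, the death receptor that recruits caspases, had 8.70 for J147 and 9.20 for vehicle, 1.41-fold lower with J147. Tnfrsf10b, the receptor of the death ligand TRAIL, had a single value of 4.36 on both arrays by its brightest probe set, and a log2 difference of -0.16 by the other. Inside the cell, Apaf1, which assembles the apoptosome that activates caspases, had 7.81 for J147 and 8.29 for vehicle, 1.40-fold lower with J147. Its other probe set had 2.34 on both arrays, close to the floor. Bbc3, the BH3-only protein PUMA, had 7.40 for J147 and 7.70 for vehicle, a log2 difference of -0.30. Phlda3, an inhibitor of AKT, had 10.29 for J147 and 10.66 for vehicle, a log2 difference of -0.37. The 5th percentile of all scored genes was -0.296. Bbc3, at -0.301, lay only just below it, beside an SD of 0.21 among its nearest probe sets. Phlda3 lay further below it, beside an SD of 0.13.

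Other apoptosis genes differed less than Bbc3 and Phlda3. Ei24, a membrane protein of the endoplasmic reticulum, had 11.30 for J147 and 11.45 for vehicle. Its log2 difference was -0.16, beside an SD of 0.13 among its nearest probe sets. Pidd1, the death domain protein of the PIDDosome, had 5.80 for J147 and 5.81 for vehicle. Aen, a nuclease that enhances apoptosis, had 10.53 for J147 and 10.49 for vehicle by its brightest probe set. The 4 probe sets of Aen ran from -0.13 to 0.24, and it was the only member with 1 probe set more than 0.1 lower and another more than 0.1 higher. Pmaip1, which encodes the BH3-only protein NOXA, and Perp, a membrane protein of desmosomes, were at the floor of 2.23 on both arrays. That value, within 0.01, is shared by 46.0% of all probe sets on the J147 array and 46.3% on the vehicle array, so it shows neither absence nor a lack of change.

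Of the repair genes, Polk, the translesion polymerase kappa, had log2 intensities of 7.38 for J147 and 8.12 for vehicle by probe set 1449483_at, 1.67-fold lower with J147. Its other probe set had 3.59 for J147 and 4.68 for vehicle, a log2 difference of -1.09 at a low level. Rrm2b, the p53-inducible subunit of ribonucleotide reductase, had 8.27 for J147 and 8.50 for vehicle, and its 4 probe sets ran from -0.24 to 0.04. The nucleotide excision repair genes, whose proteins recognise DNA lesions, differed less. Ddb2 had 7.00 for J147 and 7.10 for vehicle, with log2 differences of -0.10 and -0.12 by its 2 probe sets. Xpc had 7.08 for J147 and 7.09 for vehicle on its single probe set. The lower values among repair genes thus lay mostly in Polk.

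Sesn1, a sestrin that restrains mTOR signalling under stress, had 8.66 for J147 and 8.96 for vehicle by its brightest probe set, a log2 difference of -0.31. Its other scored probe sets had log2 differences of -0.15 and -0.73, so the size of its difference depended on the probe set although each was lower. Zmat3, an RNA-binding zinc finger protein, had 10.00 for J147 and 10.03 for vehicle.

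Probe sets of the same gene did not always give the same answer. Over the 47 scored probe sets of the members, 29 were more than 0.1 log2 units lower with J147, 2 were more than 0.1 higher and 16 lay within 0.1. Over all scored probe sets, 20.4% were more than 0.1 lower and 16.7% more than 0.1 higher. Of the 14 genes with more than 1 scored probe set, every scored probe set was more than 0.1 lower in 7, namely Mdm2, Ppm1d, Cdkn1a, Ddias, Ddb2, Polk and Sesn1. In 4, Btg2, Apaf1, Rrm2b and Tnfrsf10b, some probe sets were and the rest lay within 0.1. In Mdm4 and Ccng1 all lay within 0.1, and Aen had probe sets on both sides. The same counts over all genes with more than 1 scored probe set were not made, so these describe the members only. Probe sets of a gene share the RNA of the same 2 cultures and are not replicates.

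Other genes of the pathway were read from a list of 44, of which 33 were scored. Of these, 1 was at least 1.5-fold lower with J147 and none was higher by that much, where 0.81% and 0.556% of all scored genes were. More than 0.1 log2 units lower were 11 of the 33 and more than 0.1 higher 4, where 21.9% and 15% of all scored genes were, and the median log2 difference was -0.03. These values are not set against those of the members, which were chosen with low values of several of them known. The 14 scored upstream genes (kinases, acetyltransferases, ubiquitin ligases and their partners) had none past 1.5-fold and a median of -0.02, with 3 more than 0.1 lower and 2 more than 0.1 higher. Those lower were the acetyltransferase Ep300, the checkpoint kinase Chek2 at -0.20 and Trp53bp1, a protein that gathers at DNA breaks, at -0.17. Those higher were H2ax at 0.16 and Kat5 at 0.11. Atm, the kinase that signals DNA breaks to p53, had 8.59 on both arrays. Of the 19 scored genes listed as further targets the gene past 1.5-fold was Sesn2, the stress-induced sestrin. It had 7.36 for J147 and 8.14 for vehicle, 1.72-fold lower with J147. The next differences in size were those of Psrc1, a spindle protein, with a log2 difference of -0.51, of the acetyltransferase Ep300 with -0.31 and of the repair nuclease Ercc5 with -0.31. Among these 19 listed genes, 8 were more than 0.1 lower and 2 more than 0.1 higher, namely Epha2 at 0.29 and Wrap53 at 0.23. Whether p53 regulates each gene so listed, Wrap53 included, was not examined. The p53 relatives Trp63 and Trp73 were not scored.

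Other values moved between the arrays as well. The median log2 difference was -0.63 for 3 probe sets of 18S rRNA, -0.15 for 27 of the labelling spikes and 0.13 for 18 of the hybridization spikes, while 8 scored housekeeping genes had a median of 0.00. The part of these in the lower values of the p53 pathway genes was not tested.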

How the data were processed

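RNA from HT22 cells was measured on 1 array per condition. The authors summarised the arrays with gcRMA and deposited log2 intensities for 45101 probe sets, 64 of them controls. Affymetrix Expression Console version 1.0 is listed in the submitters' processing notes; for gcRMA a version is not given in the sources consulted. Each array was scaled to a median of 100 over the 45037 other probe sets, and the 22545 with a mean above 100 were scored, after the study's methods. Symbols were updated through the Entrez number to a RefSeq table of GRCm38.p6. Of the probe sets, 34945 have 1 symbol, 932 several and 9160 none.

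No test was possible with 1 array per group, so no p-value is given. Precision is limited by there being 2 arrays in all. The members and lists, and the roles given to the members, were chosen with earlier results of these data known. Every scored member was named, and of the other pathway genes the 4 with the largest difference. Atm, Chek2, Trp53bp1, H2ax, Kat5, Epha2, Wrap53 and the marker genes were named after their values were seen. Alternatives tried were no scaling, quantile normalization, subtraction of a lowess curve (span 0.3), a pseudocount of 50, no filter or a filter at 200, averaging all scored probe sets per gene, probe sets without the suffixes _x_at, _s_at and _a_at, and a threshold of 1.3-fold. Scripts were tested on these array values with known differences planted in some probe sets, and on short made-up sequences. They used Python 3.11.15, numpy 2.4.6, pandas 2.3.3, statsmodels 0.14.6 and matplotlib 3.10.9.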

Additional observations from a re-analysis of the deposited data

How the results depend on the processing

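Of 320 values of the p53 pathway genes and the other pathway genes under an alternative, 314 stayed close to the value given. Close means within 1.5 times for counts, within 0.1 log2 units for medians and within 1 SD of the 500 nearest probe sets for genes. The other 6 moved and 0 changed the sign of a median or of a gene at least 1.5-fold different. Many values had little or no room to move. Neither change of the filter altered the value of a scored member, and omitting the scaling shifts every log2 difference by the same small amount. Averaging cannot change a gene with 1 scored probe set. The total of 314 is therefore no measure of robustness. The median log2 difference of the members ran from -0.33 to -0.28, and the number at least 1.5-fold lower was 8 wherever it was counted. With the threshold at 1.3-fold, 11 members were lower by at least that much. The share of all scored genes past 1.3-fold was not computed. When all scored probe sets per gene were averaged, the number at least 2-fold lower was 1 in place of 2, since the second probe set of Btg2 brought it to -0.69, and Apaf1 was at -0.25. Without the suffixes _x_at, _s_at and _a_at, the median of Sesn1 and Zmat3 was -0.38, as Sesn1 was then at -0.73, and Ccng1 was at 0.01. Both scored probe sets of Mdm2 have the suffix _a_at, so Mdm2 has no value there, the median of the regulators was -0.09 in place of -0.19, and the 8 genes at least 1.5-fold lower include Sesn1 and not Mdm2. Leaving out members with identical values on both arrays, an alternative chosen after seeing the data, gave a median of -0.30. No paired analysis was possible because each group has 1 array. Changes in probe sets at the gcRMA floor could not be seen.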
